A study of Rattus norvegicus with 14 samples.

Results

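The interleukin-6 family was followed in cultured rat heart muscle cells through 9 genes chosen by symbol from the array's probe table. The ligands were Il6, Lif and Clcf1, the receptor subunits Il6r, Il6st, Osmr and Lifr, and the downstream genes Stat3 and Socs3. Of these, 8 had at least 1 probe set, with 11 probe sets in all, among the 13184 genes tested; Osmr was not analysed here. Il6st was read by 3 probe sets and Stat3 by 2, and the brightest one stands for the gene unless another is named.

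The cells were neonatal rat ventricular myocytes, a primary culture of ventricular heart muscle from Sprague-Dawley pups aged 2 days, depleted of non-muscle cells by differential plating and then kept serum-free. Phenylephrine (PE, 100 µM), an agonist of alpha1-adrenergic receptors, drives hypertrophic growth of such cells. JQ1 inhibits BET proteins, readers of acetylated histones, by occupying their bromodomains, and DMSO is its vehicle. The 14 arrays formed 5 groups. Unstimulated cells had DMSO for 90 min and no PE (n = 3). After 6 h of PE there were 2 arrays with DMSO and 3 with JQ1, and after 48 h of PE there were 3 with DMSO and 3 with JQ1. No group received JQ1 without PE, and the unstimulated cells were taken at 90 min, so every comparison with them sets PE and a longer culture time against neither. The labels' treatment protocol puts JQ1 or DMSO before PE and the design text puts PE first, so the order is not settled, and no JQ1 concentration is given in the sources used here. Whether the arrays within a group stem from different cultures is not in the labels. The p-values therefore reflect only how far these arrays spread, which may be technical.

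Cytokines of this family signal through a shared subunit, gp130, encoded by Il6st. Interleukin-6 binds its own receptor, encoded by Il6r, before engaging gp130, whereas leukemia inhibitory factor, encoded by Lif, and the cardiotrophin-like cytokine encoded by Clcf1 signal through complexes of gp130 with the leukemia inhibitory factor receptor, encoded by Lifr. Janus kinases bound to gp130 then phosphorylate STAT3, which enters the nucleus, and SOCS3, a product of a STAT3 target gene, binds gp130 and damps the signal. In heart muscle this pathway is known for its part in hypertrophic growth and in protection from stress. Protein, secretion and phosphorylation were not measured here.

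The 250 bases upstream of the start of Il6 and Stat3, the ligand and the transducer with the clearest changes below, are shown from RefSeq on the GRCr8 assembly. Both are written 5′ to 3′ on the minus strand, the coding strand of each gene, with capitals for motif matches. The Il6 window is chr4:5894576-5894825 and the Stat3 window is chr10:86363360-86363609.
Il6: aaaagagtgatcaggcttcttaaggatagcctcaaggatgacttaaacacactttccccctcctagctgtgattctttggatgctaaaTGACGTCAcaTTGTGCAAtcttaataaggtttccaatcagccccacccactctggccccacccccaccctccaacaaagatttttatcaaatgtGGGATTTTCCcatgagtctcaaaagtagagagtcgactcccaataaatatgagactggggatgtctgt
Stat3: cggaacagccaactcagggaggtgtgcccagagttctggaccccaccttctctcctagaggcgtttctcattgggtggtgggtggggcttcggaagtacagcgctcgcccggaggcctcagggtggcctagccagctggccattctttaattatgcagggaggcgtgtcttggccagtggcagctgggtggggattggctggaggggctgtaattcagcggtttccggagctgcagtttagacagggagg
Promoters were found for 7 of the 9 genes, all but Lif and Clcf1. The motifs searched, on both strands, were STAT (TTCNNNGAA), C/EBP (TTGCNNAA), AP-1 (TGANTCA), CRE (TGACGTCA), the TATA box motif, spelled TATAAA, and the NF-kappaB motif. The Il6 window held 3 matches that do not overlap. A CRE lay at bases -162 to -155 from the start, a C/EBP match on the opposite strand at -152 to -145, and an NF-kappaB match at -68 to -59. Among 33469 promoters of the same length, 1.59% held the CRE, 9.22% the C/EBP motif and 4.53% the NF-kappaB motif. Osmr held 1 AP-1 match, at -33 to -27, a motif found in 6.34% of promoters. The STAT motif was in 7.67% and the TATA motif in 12.9% of promoters and in none of these 7. The windows of Il6r, Il6st, Lifr, Stat3 and Socs3 held no match, which says only that these letters are not in these windows.

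Values are the deposited log2 expression values. Differences are log2 fold changes with their standard error (SE) from 1 limma fit of all 14 arrays, and every adjusted p is limma's, corrected by the Benjamini-Hochberg method over all 13184 genes, with 0.05 as the threshold. Array medians lay between 7.28 and 7.43, and arrays within groups had correlations across probe sets of 0.9976 to 0.9986. A gene is called dim below a log2 value of 6.23, the 30th percentile of gene means. Lif, Clcf1 and Socs3 had a dim mean in all 5 groups, and Il6 in the unstimulated cells and in JQ1 with PE at 48 h. The 12 heart muscle markers were all above this level in every group, with a mean log2 value between 13.46 and 13.67 on each array. Of 9 endothelial markers 6 or 7 were dim, and of 15 leukocyte markers 7 to 10 were dim, depending on the group. None of the 12 fibroblast markers was dim in the DMSO groups.

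PE raised Il6 and Clcf1 at both times and lowered Lifr and Il6r. Stat3 was higher with PE at 6 h and had fallen again by 48 h. JQ1 lowered Il6 at both times and Clcf1, dim in every group, at 48 h. It raised Stat3 at both times and Lifr at 48 h. Lif met limma's threshold in none of the 8 comparisons and was below an unadjusted p of 0.05 in 2.

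**Figure D1:**
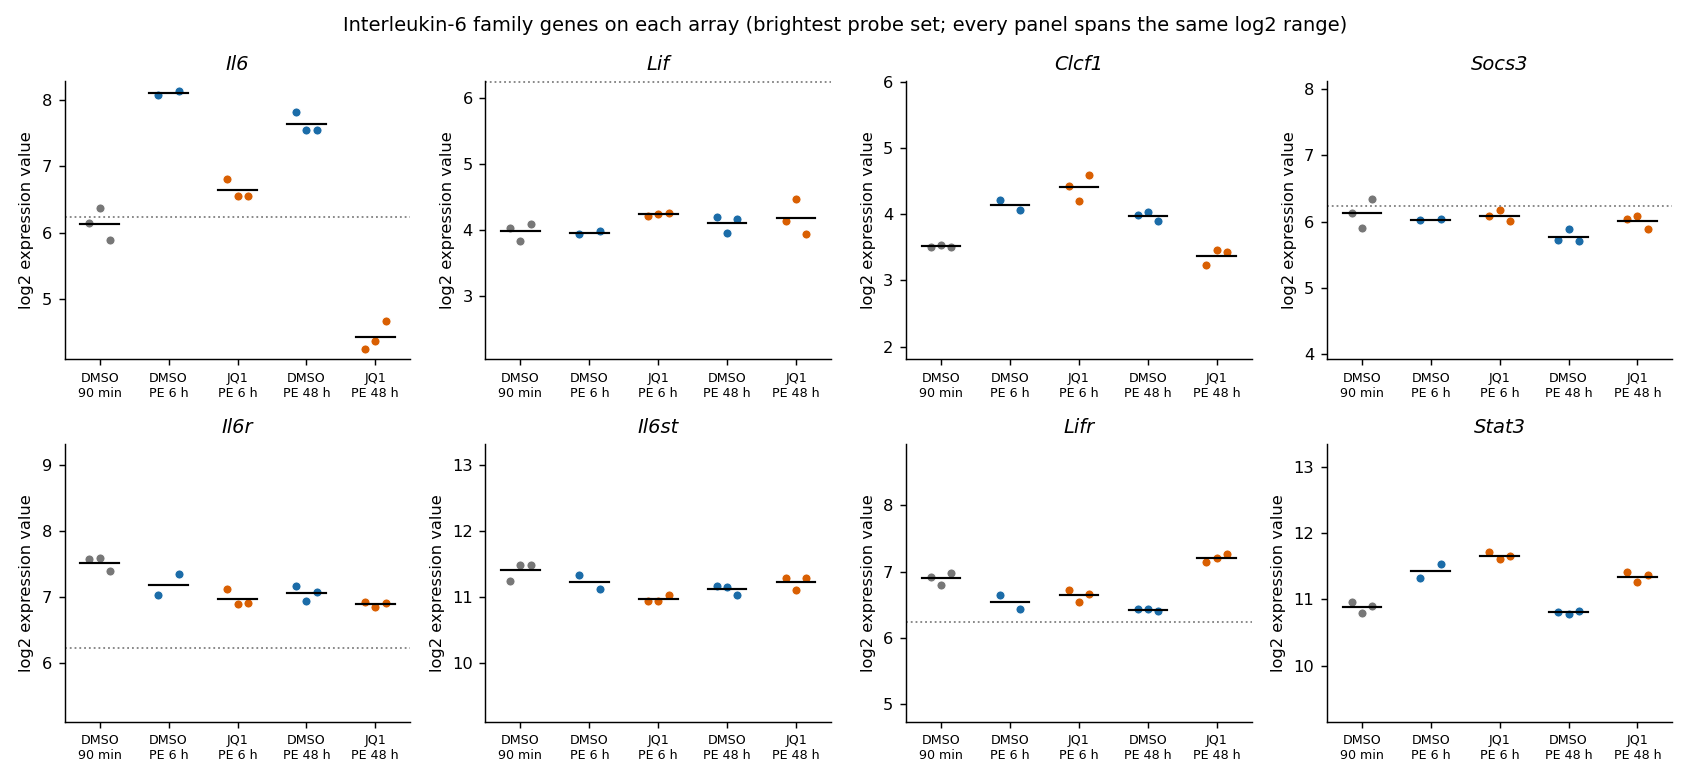
Each point is the log2 expression value of a gene on 1 array (brightest probe set), by group, with a bar at the group mean; every panel spans the same range and a dotted line, where it falls in the panel, marks the dim limit of 6.23. Il6 moves over the widest range, from a group mean of 4.42 in JQ1 with PE at 48 h to 8.11 in DMSO with PE at 6 h, while Lif stays between 3.96 and 4.24.

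Il6, the founding ligand of the family, read 6.15, 6.38 and 5.89 on the unstimulated arrays. It read 8.08 and 8.14 with PE at 6 h, and 7.83, 7.55 and 7.55 with PE at 48 h. All 5 PE arrays without JQ1 lay above all unstimulated arrays. The rise was 1.97 (SE 0.15, adjusted p = 6.83e-07) at 6 h, or 3.93-fold in array signal. At 48 h it was 1.50 (SE 0.14, adjusted p = 1.82e-06), or 2.84-fold. Among the 13184 genes, Il6 ranked 19 by increase at 6 h and 49 at 48 h. The unstimulated mean, 6.14, is dim, so these folds and ranks describe the array signal and may not give the ratio of transcripts. The level at 48 h was lower than at 6 h by a log2 difference of -0.47 (SE 0.15, adjusted p = 0.0294), without overlap of the arrays. That last call was lost in 5 of 12 alternative settings, among them without either 6 h array and without DMSO replicate 2 or 3 of the 48 h PE arrays, with adjusted p from 0.00867 to 0.131 over all 12.

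With JQ1, Il6 read 6.81, 6.55 and 6.55 on the PE arrays at 6 h. These lay between the unstimulated arrays and the DMSO with PE arrays and overlapped neither. The difference from DMSO was -1.47 (SE 0.15, adjusted p = 3.32e-06), or 2.77-fold lower. Against the unstimulated cells, Il6 with JQ1 and PE at 6 h was still higher by 0.50 (SE 0.14, adjusted p = 0.00567). At 48 h with JQ1 it read 4.24, 4.36 and 4.66, the lowest 3 values of the series. The difference from DMSO was -3.22 (SE 0.14, adjusted p = 4.99e-10), or 9.31-fold lower, and Il6 ranked 24 by decrease among all genes. It lay below the unstimulated level too, by a log2 difference of -1.72 (SE 0.14, adjusted p = 1.98e-07), or 3.28-fold. The mean in JQ1 with PE at 48 h, 4.42, is far below the dim limit, so the 9.31-fold and 3.28-fold decreases and the rank also describe the array signal only. The JQ1 effect was larger at 48 h than at 6 h, with a difference of effects of -1.75 (SE 0.20, adjusted p = 2.29e-05). The 2 JQ1 effects use separate DMSO groups, and the comparisons of PE and JQ1 at each time share the DMSO with PE arrays.

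Markers of fibroblasts, a cell type that can persist in such cultures, moved with JQ1 as well. Their mean log2 value over 12 genes was 10.59 to 10.63 on unstimulated arrays, 10.59 to 10.61 with PE at 6 h and 10.45 to 10.47 with PE at 48 h. With JQ1 it was 10.10 to 10.13 at 6 h and 9.19 to 9.27 at 48 h. JQ1 lowered 8 of the 12 at 6 h (median -0.26) and all 12 at 48 h (median -1.29), against a median over all genes of 0.00 and 0.02. In JQ1 with PE at 48 h, Tcf21 and Fap were dim, and at 6 h Tcf21 alone was. Smooth muscle and pericyte markers were lower for 6 of 9 genes at 6 h, where 2 were higher, and for 7 of 9 at 48 h, where none was higher, also at an unadjusted p under 0.05. Their mean level was 7.99 to 8.05 in JQ1 with PE at 48 h and 8.90 to 8.93 in its DMSO group. With JQ1, 25.5% of all genes were higher and 28.8% lower at 6 h, and 30% higher and 29.6% lower at 48 h. Leukocyte markers were lower for 6 of 15 genes and higher for 1 at 6 h. At 48 h 5 were lower and none was higher, also at an unadjusted p under 0.05. Endothelial markers were lower for 2 of 9 at 6 h and 4 at 48 h, and higher for 2 and 1. Heart muscle markers were lower for 5 of 12 at 6 h and 6 at 48 h, and higher for 2 and 4. Their changes past the threshold at 48 h ran from -1.55 (Tnni3) to 0.65 (Mybpc3). The count of lower leukocyte markers at 48 h and the endothelial counts at 6 h are near the shares of all genes. In these whole-culture samples, fewer cells of a type and less RNA per cell cannot be told apart. The part of these cell types in the Il6 result was not tested. With PE at 6 h, 2 of 12 fibroblast markers were higher and 2 lower, near the 18.3% and 18.9% of all genes. Of the 9 smooth muscle and pericyte markers, 5 were higher and 2 lower in that comparison.

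**Figure D2:**
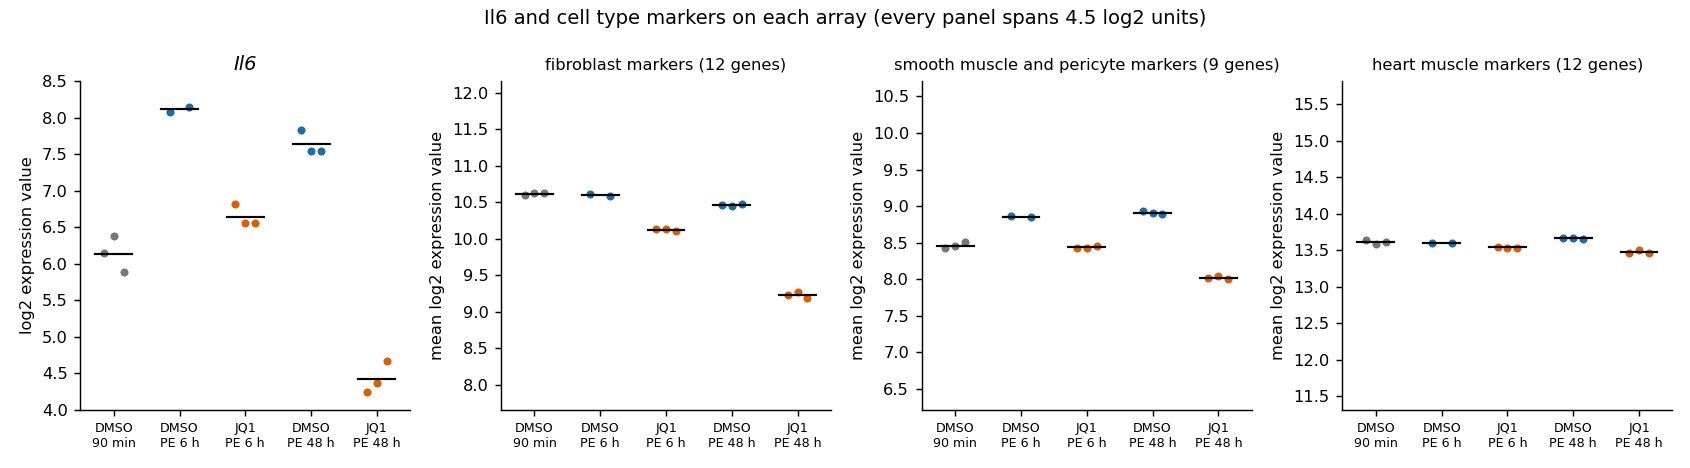
Points are arrays, bars are group means, and the vertical axes give the log2 value of Il6 or the mean log2 value of the fibroblast, smooth muscle and pericyte, or heart muscle markers, each over 4.5 log2 units. JQ1 with PE at 48 h is lowest for Il6 and for each marker list shown. The range is narrow for heart muscle markers, between 13.46 and 13.67 on all arrays, with 13.46 to 13.50 in that group.

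Clcf1, the cardiotrophin-like cytokine, was far below the dim limit in every group. Its differences therefore describe the array signal and may not give changes of the transcript. It read 3.50, 3.54 and 3.51 in unstimulated cells, 4.21 and 4.06 with PE at 6 h, and 3.98, 4.03 and 3.90 with PE at 48 h. Every PE array without JQ1 lay above every unstimulated array. Clcf1 rose by 0.62 (SE 0.10, adjusted p = 0.000372) at 6 h. It rose by 0.46 (SE 0.090, adjusted p = 0.00125) at 48 h. JQ1 with PE gave 4.43, 4.19 and 4.59 at 6 h and 3.23, 3.45 and 3.44 at 48 h. The JQ1 arrays overlapped those of DMSO at 6 h and lay below them at 48 h. The 6 h difference was 0.27 (SE 0.10, adjusted p = 0.0387), and the call was lost in 5 of 11 alternatives, with adjusted p from 0.00294 to 0.248. Those alternatives were the replicate block, the fit of these groups alone, and leaving out DMSO replicate 2 or JQ1 replicate 1 or 3. The 48 h difference was -0.60 (SE 0.090, adjusted p = 7.32e-05). The JQ1 effects at the 2 times differed by -0.87 (SE 0.14, adjusted p = 0.000244). Against unstimulated cells, Clcf1 was 0.89 higher (adjusted p = 1.77e-06) in JQ1 with PE at 6 h, and the value at 48 h, -0.14, did not pass (adjusted p = 0.191).

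Lif, the ligand of the leukemia inhibitory factor receptor, had group means between 3.96 and 4.24, all dim. It read 4.03, 3.84 and 4.10 in unstimulated cells and 3.94 and 3.99 with PE at 6 h. At 48 h with PE it read 4.20, 3.96 and 4.17. JQ1 with PE gave 4.22, 4.24 and 4.25 at 6 h and 4.13, 4.47 and 3.95 at 48 h. Among the groups compared, arrays overlapped except that the JQ1 arrays at 6 h lay above both the unstimulated arrays and the DMSO arrays of the same time. The PE difference was -0.02 at 6 h (95% interval -0.30 to 0.25) and 0.12 at 48 h (-0.12 to 0.37). The JQ1 difference was 0.27 at 6 h (95% interval 0.00 to 0.55, adjusted p = 0.0853) and 0.08 at 48 h (-0.17 to 0.32). The 6 h value passed in 2 of 11 alternatives, array centring and the fit of these groups alone, with adjusted p from 0.00439 to 0.245.

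Lifr is the signalling partner of gp130 for several family ligands. It read 6.92, 6.79 and 6.99 in unstimulated cells, 6.64 and 6.43 with PE at 6 h, and 6.43, 6.43 and 6.40 with PE at 48 h. PE arrays without JQ1 were all below the unstimulated ones. Lifr fell by 0.36 on the log2 scale (SE 0.073, adjusted p = 0.00167) at 6 h and by 0.48 (SE 0.065, adjusted p = 6.37e-05) at 48 h. With JQ1 and PE it read 6.72, 6.55 and 6.67 at 6 h, overlapping DMSO, and 7.15, 7.20 and 7.26 at 48 h, above every other array of the series. The JQ1 difference was 0.11 at 6 h (95% interval -0.05 to 0.26, adjusted p = 0.249). At 48 h it was 0.79 (SE 0.065, adjusted p = 2.84e-07), or 1.72-fold. The effects differed by 0.68 (SE 0.097, adjusted p = 0.000125). Against unstimulated cells, Lifr was 0.30 higher in JQ1 with PE at 48 h (SE 0.065, adjusted p = 0.00122). At 6 h it was lower, with a difference of -0.26 (SE 0.065, adjusted p = 0.00377), a call lost when arrays were centred on their medians (adjusted p = 0.0603, range over the 13 alternatives 0.00171 to 0.0603).

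Il6r, the subunit specific to interleukin-6, read 7.58, 7.59 and 7.39 in unstimulated cells. It read 7.03 and 7.35 with PE at 6 h and 7.18, 6.93 and 7.08 with PE at 48 h. Both PE groups lay below the unstimulated arrays. The difference was -0.46 (SE 0.093, adjusted p = 0.00158) at 48 h. At 6 h it was -0.33 (SE 0.10, adjusted p = 0.0249), and this call was lost in 4 of 12 alternatives, with adjusted p from 0.00598 to 0.311. Without DMSO replicate 1 of the 6 h PE arrays the value was -0.17 (adjusted p = 0.311); the other losses came without unstimulated replicate 1 or 2 and in the fit of these groups alone. With JQ1 and PE, Il6r read 7.13, 6.90 and 6.90 at 6 h and 6.93, 6.84 and 6.91 at 48 h. The 6 h arrays overlapped DMSO and the 48 h arrays lay just below it. The JQ1 difference was -0.21 at 6 h (95% interval -0.44 to 0.02, adjusted p = 0.113) and -0.17 at 48 h (-0.37 to 0.03, adjusted p = 0.14). Against unstimulated cells Il6r fell with JQ1 and PE by 0.54 (adjusted p = 0.000218) at 6 h and by 0.63 (adjusted p = 6.95e-05) at 48 h.

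Il6st, the gp130 subunit, gave different answers by probe set. The brightest read 11.24, 11.49 and 11.49 in unstimulated cells, 11.34 and 11.13 with PE at 6 h, and 11.16, 11.16 and 11.03 with PE at 48 h. With JQ1 and PE it read 10.95, 10.95 and 11.03 at 6 h and 11.29, 11.11 and 11.29 at 48 h. The JQ1 arrays at 6 h lay below the DMSO arrays, and those at 48 h overlapped them. PE lowered this probe set at 48 h by 0.29 (SE 0.080, adjusted p = 0.0111), a call at adjusted p = 0.0502 without DMSO replicate 3 of the 48 h PE arrays (range over 13 alternatives 0.000212 to 0.0502). The PE value at 6 h was -0.17 (95% interval -0.36 to 0.03, adjusted p = 0.17). JQ1 lowered it at 6 h by 0.26 (SE 0.090, adjusted p = 0.026) but not past the threshold at 48 h, where the value was 0.11 (95% interval -0.06 to 0.29).

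The third Il6st probe set moved the other way with JQ1 at 6 h. It read 9.06 and 9.18 with PE at 6 h against 9.38, 9.37 and 9.37 with JQ1, and 8.86, 8.72 and 8.90 with PE at 48 h against 9.17, 9.17 and 9.09 with JQ1. JQ1 arrays were above DMSO arrays at both times. The differences were 0.26 (SE 0.058, adjusted p = 0.0025) at 6 h and 0.31 (SE 0.052, adjusted p = 0.000189) at 48 h, with p for these further probe sets adjusted over 18510 probe sets. The second probe set showed 0.01 (95% interval -0.08 to 0.10) and 0.04 (-0.04 to 0.12), neither past the threshold. At 48 h of PE the second probe set fell by 0.27 (adjusted p = 5.77e-05), and the third, with a difference of -0.13, did not pass (adjusted p = 0.066). With the 3 probe sets averaged, the JQ1 difference of Il6st at 6 h was 0.00 (adjusted p = 0.965), so no direction holds for the gene at that time. At 48 h the difference was positive in all 3 probe sets (0.11, 0.04 and 0.31), and only the third passed. The value that stands for the gene at 48 h passed in 2 of 13 alternatives, with adjusted p from 0.00222 to 0.55. The 6 h call of the brightest probe set was lost in 5 of 12 alternatives (adjusted p from 0.00264 to 0.965). These were averaging, array centring, and leaving out DMSO replicate 1 or JQ1 replicate 1 or 2. From 6 h to 48 h of PE without JQ1, the brightest probe set did not pass (-0.12, adjusted p = 0.36). It passed in 1 of 12 alternatives, with adjusted p from 0.00182 to 0.958. The other 2 probe sets were lower at 48 h than at 6 h, without overlap of the arrays. Their differences were -0.21 (adjusted p = 0.00173) and -0.29 (adjusted p = 0.00247).

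**Figure D3:**
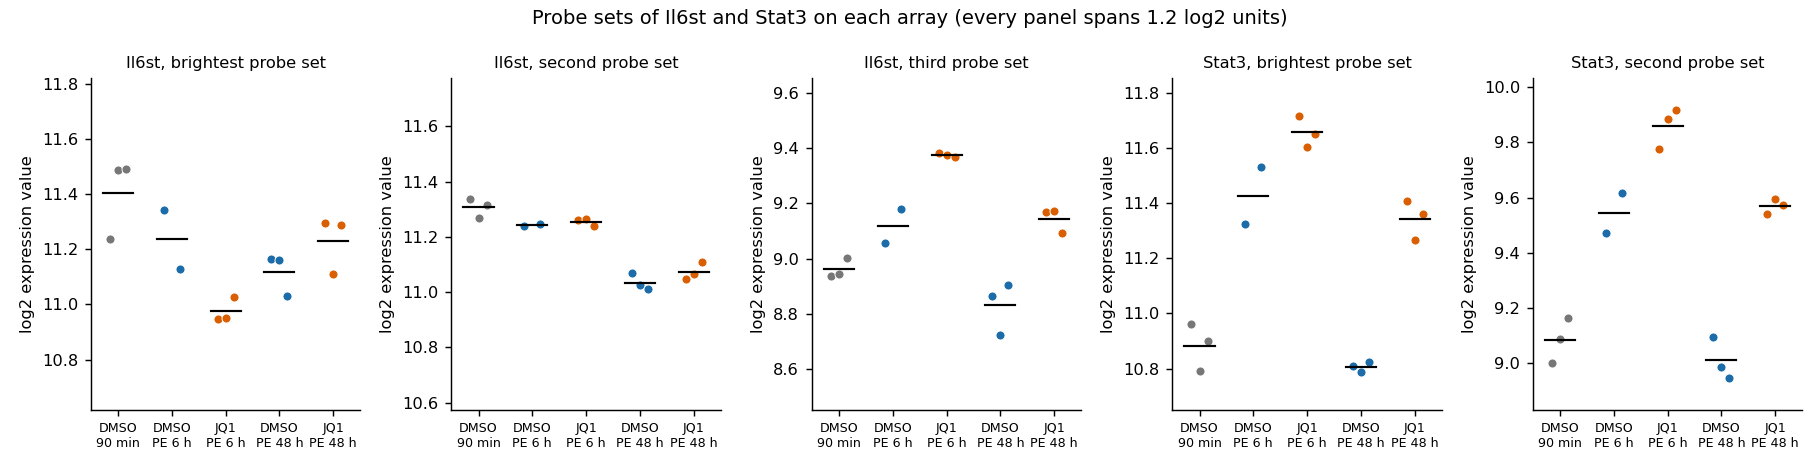
Points are arrays and bars group means of the log2 expression value for the 3 probe sets of Il6st and the 2 of Stat3, each panel over 1.2 log2 units. JQ1 arrays at 6 h are below DMSO arrays in the brightest Il6st panel and above them in the third, while both Stat3 panels have JQ1 above DMSO at each time.

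Stat3, the transcription factor activated by gp130, read 10.96, 10.79 and 10.90 in unstimulated cells. It read 11.32 and 11.53 with PE at 6 h and 10.81, 10.79 and 10.82 with PE at 48 h. The 6 h arrays were above the unstimulated ones and the 48 h arrays overlapped them. PE raised Stat3 at 6 h by 0.54 (SE 0.068, adjusted p = 4.62e-05), or 1.46-fold. At 48 h the difference was -0.08 (95% interval -0.21 to 0.06, adjusted p = 0.342), and from 6 h to 48 h Stat3 fell by 0.62 (SE 0.068, adjusted p = 1.9e-05). JQ1 with PE gave 11.72, 11.60 and 11.65 at 6 h and 11.41, 11.26 and 11.36 at 48 h, in each case above all DMSO arrays of that time. The JQ1 difference was 0.23 (SE 0.068, adjusted p = 0.012) at 6 h. Without DMSO replicate 1 of the 6 h PE arrays it was 0.13 and did not pass (adjusted p = 0.179, range over the 12 alternatives 0.000561 to 0.179). At 48 h the JQ1 difference was 0.54 (SE 0.061, adjusted p = 5.35e-06), or 1.45-fold, and the effects at the 2 times differed by 0.31 (SE 0.091, adjusted p = 0.0172). The difference of effects was 0.21 (adjusted p = 0.102, range over 18 alternatives 0.00128 to 0.102) without DMSO replicate 2 of the 6 h PE arrays. Against unstimulated cells, Stat3 was higher with JQ1 and PE by 0.77 at 6 h (adjusted p = 1.52e-07) and by 0.46 at 48 h (adjusted p = 2.36e-05).

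The second Stat3 probe set read 9.0, 9.09 and 9.16 in unstimulated cells, 9.47 and 9.62 with PE at 6 h, and 9.10, 8.99 and 8.95 with PE at 48 h. With JQ1 and PE it read 9.78, 9.89 and 9.92 at 6 h and 9.54, 9.60 and 9.57 at 48 h. As in the first probe set, JQ1 arrays were above DMSO arrays at both times and the 6 h PE arrays were above the unstimulated ones. The PE difference at 6 h was 0.46 (adjusted p = 0.000175), and the JQ1 differences were 0.32 (adjusted p = 0.00145) at 6 h and 0.56 (adjusted p = 3.51e-06) at 48 h. The difference of JQ1 effects, 0.24, did not pass in this probe set (adjusted p = 0.0536).

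Socs3, the feedback inhibitor of gp130, was dim in every group. It read 6.14, 5.90 and 6.35 in unstimulated cells, 6.02 and 6.04 with PE at 6 h, and 5.72, 5.89 and 5.70 with PE at 48 h. The 48 h arrays lay below the unstimulated arrays, and those at 6 h overlapped them. Socs3 fell with PE at 48 h by 0.36 (SE 0.096, adjusted p = 0.00868), and the value at 6 h was -0.10 (95% interval -0.33 to 0.14). JQ1 with PE gave 6.08, 6.17 and 6.01 at 6 h and 6.03, 6.08 and 5.89 at 48 h. The 48 h arrays lay just above their DMSO group, and the 6 h arrays overlapped theirs. The JQ1 difference was 0.06 at 6 h (95% interval -0.18 to 0.29) and 0.23 at 48 h (0.02 to 0.44, adjusted p = 0.053). The 48 h value passed in 5 of 12 alternatives, with adjusted p from 0.0117 to 0.155.

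**Figure D4:**
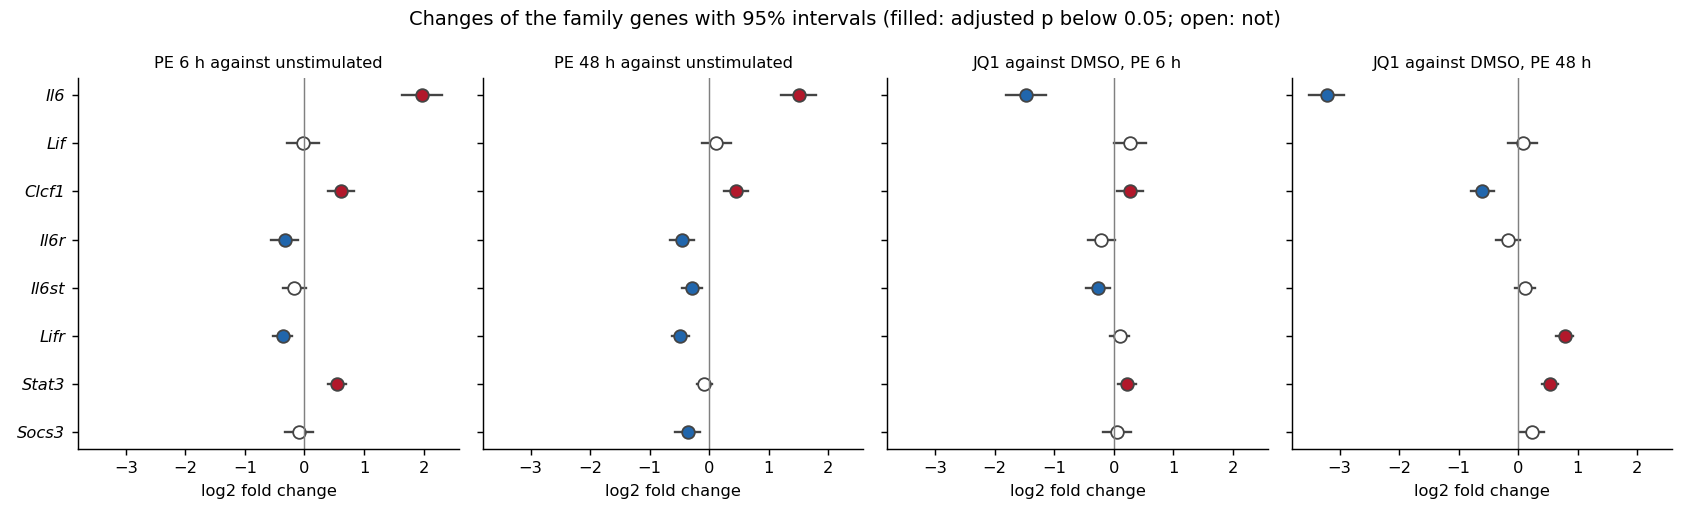
Points are log2 fold changes of the 8 genes in 4 comparisons, lines are 95% intervals, and filled points passed an adjusted p of 0.05, red for higher and blue for lower. Il6 lies farthest from 0 in each panel, at 1.97, 1.50, -1.47 and -3.22.

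Counts over the 8 genes are set here beside the share of all genes called in the same direction. With PE at 6 h, 3 were higher and 2 lower, where 18.3% of all genes were higher and 18.9% lower. With PE at 48 h, 2 were higher and 4 lower, against 21.4% and 22.6% of all genes. From 6 h to 48 h of PE, none was higher in limma's test, nor at an unadjusted p under 0.05, against 16.3%. By the brightest probe sets, 2 (Il6 and Stat3) were lower, against 18.4%. The other 2 probe sets of Il6st were lower too, as given above. With JQ1 at 6 h, 2 were higher and 2 lower, against 25.5% and 28.8%. With JQ1 at 48 h, again 2 were higher and 2 lower, against 30% and 29.6%. The JQ1 effects at the 2 times differed upward for 3 genes and downward for 2, against 20.4% and 18.3%. Relative to unstimulated cells, JQ1 with PE at 6 h had 3 higher and 3 lower (30.9% and 31.7% of all genes). At 48 h 2 were higher and 2 lower (31.6% and 29.2%). Il6st is among the lower at 6 h by its brightest probe set (-0.43), but its probe sets disagreed. The least bright was higher by 0.41 at 6 h (adjusted p = 1.47e-05) and 0.18 at 48 h (adjusted p = 0.00922). The remaining probe set did not pass at 6 h (-0.05, adjusted p = 0.232) and was lower at 48 h (-0.23, adjusted p = 0.000101). The median change of the 8 genes was -0.06 for PE at 6 h, -0.18 for PE at 48 h, 0.08 for JQ1 at 6 h and 0.09 for JQ1 at 48 h. Over all genes these medians were 0.01, 0.01, 0.00 and 0.02.

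The rest of the pathway was read through 53 listed genes, of which 48 were measured, and the others were not analysed here. Among the other family ligands, none of 4 passed in limma's test with PE at either time, and at an unadjusted p under 0.05 there was 1 higher at 6 h and 1 lower at 48 h. JQ1 lowered 3 of the 4 at 6 h and 2 at 48 h, where 28.8% and 29.6% of all genes were lower. Cntf, which encodes ciliary neurotrophic factor, read 7.31 and 7.50 with PE at 6 h and 6.20, 6.10 and 6.26 with JQ1, without overlap. Its mean with JQ1 at 6 h was dim. Its difference was -1.22 (SE 0.089, adjusted p = 1.57e-07) at 6 h and -0.50 (SE 0.079, adjusted p = 0.000118) at 48 h, and these effects differed by 0.72 (SE 0.12, adjusted p = 0.000403). Ctf1, encoding cardiotrophin-1 and dim in all groups, was lower with JQ1 by a difference of -0.39 at both times (adjusted p = 0.0411 and 0.0218). Ebi3, a subunit of related cytokines, fell by 0.41 at 6 h (adjusted p = 0.00136).

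Of the 3 other receptors, PE lowered Il27ra at 48 h by 0.20 (adjusted p = 0.0204) and changed none past limma's threshold at 6 h, where the count at an unadjusted p under 0.05 was also 0. JQ1 raised Il27ra, a dim gene, by 0.59 at 6 h (adjusted p = 1.29e-05) and 0.41 at 48 h (adjusted p = 0.0001). Il11ra1, the receptor of interleukin-11, read 10.51, 10.38 and 10.54 with PE at 48 h and 10.95, 11.00 and 11.01 with JQ1. Those arrays did not overlap, and the rise was 0.51 (SE 0.048, adjusted p = 9.61e-07).

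Of the 9 measured kinases, STATs and adaptors, 7 were higher and 2 lower with JQ1 at 6 h, where 25.5% of all genes were higher and 28.8% lower. At 48 h 7 were higher and 1 lower, against 30% and 29.6%. Their median was 0.23 at 6 h and 0.32 at 48 h, and that of all genes 0.00 and 0.02. Jak2, a Janus kinase, read 8.92 and 8.87 with PE at 6 h and 9.57, 9.51 and 9.43 with JQ1. It rose by 0.61 (SE 0.067, adjusted p = 6.01e-06) at 6 h and by 0.59 (SE 0.060, adjusted p = 1.77e-06) at 48 h. Grb2, an adaptor that links receptors to Ras, rose by 0.69 (adjusted p = 1.29e-08) and 0.50 (adjusted p = 4.72e-08). Sos1, the Ras exchange factor bound by that adaptor, rose by 0.37 at 6 h (adjusted p = 4.74e-06) and by 0.39 at 48 h (adjusted p = 7.52e-07). Shc1, another adaptor, fell by 0.57 (adjusted p = 1.71e-07) and 0.72 (adjusted p = 4.03e-09). Gab1, a docking protein downstream of gp130, read 10.08 and 10.11 with PE at 6 h and 9.83, 9.89 and 9.84 with JQ1. At 48 h it read 10.28, 10.22 and 10.21 with PE and 10.84, 10.86 and 10.83 with JQ1. JQ1 arrays were thus below DMSO arrays at 6 h and above them at 48 h, and the effects differed by 0.85 (SE 0.048, adjusted p = 5.72e-08). PE without JQ1 raised 1 (Shc1, by 0.18, adjusted p = 0.0045) and lowered 2 of the 9 at 6 h, against 18.3% and 18.9% of all genes. At 48 h it raised 2, Stat5b by 0.20 (adjusted p = 0.0293) and Sos1 by 0.11 (adjusted p = 0.0258), and lowered 4, against 21.4% and 22.6%. Gab1 fell by 0.65 (adjusted p = 4.39e-08) and 0.51 (adjusted p = 8.27e-08), and Jak1 by 0.23 (adjusted p = 0.00021) and 0.28 (adjusted p = 1.17e-05). Jak2 fell by 0.28 at 48 h (adjusted p = 0.00191).

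Of 10 genes for brakes on the signal and for receptor shedding, PE raised 1 (Ptpn2, by 0.17, adjusted p = 0.00682) and lowered 3 at 6 h, where 18.3% of all genes were higher and 18.9% lower. It lowered 7 at 48 h (median -0.20), where 22.6% of all genes were lower. None was raised at 48 h in limma's test, nor at an unadjusted p under 0.05. Socs2, a relative of Socs3, read 7.79, 7.89 and 7.91 in unstimulated cells, 6.96 and 6.81 with PE at 6 h, and 7.05, 6.99 and 6.97 with PE at 48 h. It fell by 0.98 (SE 0.076, adjusted p = 7.68e-07) and 0.86 (SE 0.068, adjusted p = 5.33e-07). Pias3, an inhibitor of STAT3, fell by 0.54 (adjusted p = 1.38e-06) and 0.51 (adjusted p = 4.76e-07). Adam10, a protease that sheds the interleukin-6 receptor, fell by 0.24 (adjusted p = 0.0362) and 0.44 (adjusted p = 0.000298). With JQ1, 4 of the 10 were higher and 1 lower at 6 h (all genes, 25.5% and 28.8%), and 4 higher and 2 lower at 48 h (30% and 29.6%), counts near those shares at 48 h. Adam10 rose by 0.49 (adjusted p = 0.000195) and 0.77 (adjusted p = 8.76e-07), and at 48 h Pias3 rose by 0.51 (adjusted p = 1.69e-07) and Pias1 by 0.38 (adjusted p = 3.38e-05). Ptpn2 rose by 0.27 at 6 h (adjusted p = 0.000123) and by 0.31 at 48 h (adjusted p = 9.84e-06). Adam17 fell by 0.14 at 6 h (adjusted p = 0.0109). Socs2 fell by 0.61 at 48 h (adjusted p = 4.98e-06). Cish, another SOCS relative, rose by 0.64 at 6 h (adjusted p = 1.13e-05) and fell by 0.34 at 48 h (adjusted p = 0.000736), effects that differed by -0.97 (SE 0.10, adjusted p = 9.21e-06).

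The 22 genes listed as responsive to STAT3 also answer to other factors. PE at 6 h raised 11 and lowered none in limma's test, with a median of 0.22; at an unadjusted p under 0.05 the counts were 12 and 1. Of all genes, 18.3% were higher and 18.9% lower. PE at 48 h raised 4 and lowered 10 (median -0.14), against 21.4% and 22.6% of all genes. From 6 h to 48 h 1 rose and 16 fell (median -0.36), against 16.3% and 18.4%. Leukocyte markers were lower for 9 of 15 genes with PE at 48 h (median -0.32) and for 8 from 6 h to 48 h (median -0.27). Fibroblast markers were lower for 7 of 12 with PE at 48 h, where 1 was higher, and for 5 from 6 h to 48 h, where 1 was higher. The part of these cell types in the list's change was not tested. Timp1, an inhibitor of matrix proteases, read 11.30, 11.35 and 11.38 in unstimulated cells and 12.32 and 12.37 with PE at 6 h. It rose by 1.01 (adjusted p = 1.63e-08), and was still 0.80 higher at 48 h (adjusted p = 2.42e-08). Cebpd, encoding a transcription factor of the acute phase, rose at 6 h by 0.65 (adjusted p = 1.5e-05). Hamp, encoding the iron hormone hepcidin, rose at 6 h by 1.14 (adjusted p = 1.58e-07) and fell by 1.61 at 48 h (adjusted p = 2.19e-09). Lbp, which encodes a lipopolysaccharide-binding acute phase protein, rose at 48 h by 1.17 (adjusted p = 5.25e-05), and Il4r by 0.55 (adjusted p = 2.72e-05). Lbp was dim in every group but DMSO with PE at 48 h. Reg3b, for a secreted lectin, fell by 2.65 (adjusted p = 2.46e-10) and Bcl3, for a regulator of NF-kappaB, fell by 0.70 (adjusted p = 3.18e-05). From 6 h to 48 h Lbp rose by 0.57 (adjusted p = 0.0219), Reg3b fell by 2.76 (adjusted p = 1.13e-09), Hamp fell by 2.75 (adjusted p = 7.16e-10) and Mt2A fell by 0.90 (adjusted p = 2.14e-06).

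With JQ1, 7 of the 22 were higher and 6 lower at 6 h, near the 25.5% and 28.8% of all genes. At 48 h 7 were higher, near the 30% of all genes, and 10 lower, against 29.6%. The medians were 0.10 and -0.03. The metal-binding metallothionein Mt2A read 11.45 and 11.67 with PE at 6 h and 12.47, 12.57 and 12.60 with JQ1, and at 48 h 10.72, 10.60 and 10.66 against 12.23, 12.02 and 12.15. It rose by 0.99 (adjusted p = 2.65e-07) and 1.48 (adjusted p = 1.21e-09). Junb, for a subunit of AP-1, rose by 0.72 (adjusted p = 3.91e-07) and 0.97 (adjusted p = 5.06e-09). Timp1 rose by 0.65 at 6 h (adjusted p = 2.5e-07) and by 0.27 at 48 h (adjusted p = 0.000136). Mt1, dim in DMSO with PE at 48 h, rose at that time by 1.05 (adjusted p = 2.24e-06). Lbp read 6.89, 6.56 and 6.58 with PE at 48 h and 5.15, 4.60 and 5.09 with JQ1, without overlap. It fell by 0.74 (adjusted p = 0.00259) at 6 h and fell by 1.73 (adjusted p = 5.97e-07) at 48 h, to a dim mean at both times. Bcl3 fell by 1.03 (adjusted p = 1.65e-06) at 6 h and fell by 1.14 (adjusted p = 1.41e-07) at 48 h. Hamp fell by 1.13 at 6 h (adjusted p = 5.96e-08) and rose by 0.35 at 48 h (adjusted p = 0.000443). Cp, for the copper carrier ceruloplasmin, fell by 0.41 at 6 h (adjusted p = 0.00116) and by 1.33 at 48 h (adjusted p = 9e-09). Fibroblast markers were lower with JQ1 over the same arrays, as given above, and their part in these changes was not tested.

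**Figure D5:**
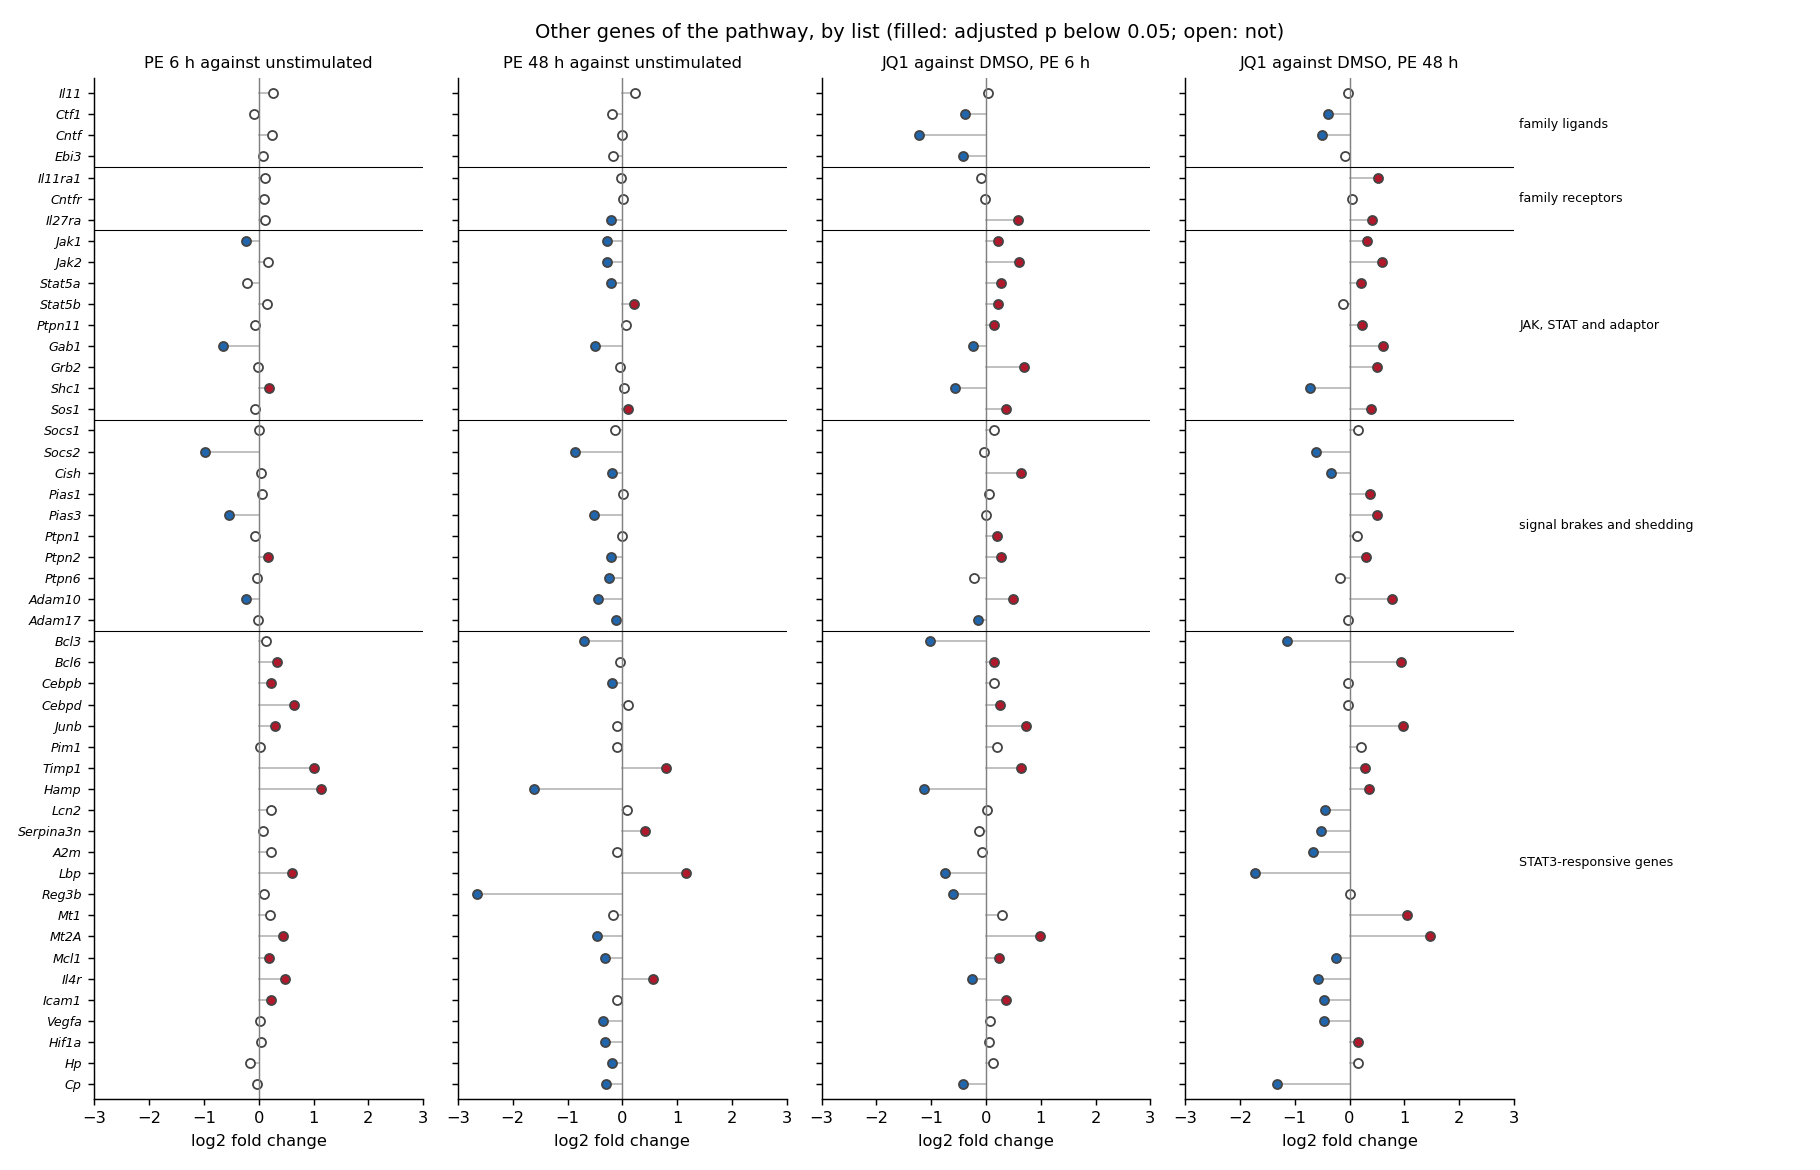
Points are log2 fold changes of the 48 other pathway genes in 4 comparisons, grouped by list, with filled points past an adjusted p of 0.05, red for higher and blue for lower. In the STAT3-responsive list 11 genes are raised and none lowered with PE at 6 h, and with JQ1 at 48 h 7 are raised and 10 lowered.

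Genes most like a family member over the 5 groups were found by the root mean square difference between group means, each centred on its own mean over the groups. For Il6, whose group means span 3.69, these were Ptgis, the prostacyclin synthase gene (0.358), Klhl41 (0.388) and Il1rl1, the interleukin-33 receptor gene (0.396). Ptgis had group means of 10.44 in unstimulated cells, 12.23 and 10.38 with PE at 6 h without and with JQ1, and 11.91 and 9.27 at 48 h. As for Il6, both DMSO with PE groups were above the unstimulated mean and JQ1 with PE at 48 h was the lowest. Ptgis was picked for this likeness, so the shared pattern is no separate result. In JQ1 with PE at 6 h the Ptgis mean was just below its unstimulated mean. For Il6 that group mean, 6.64, was above the unstimulated 6.14. For Clcf1, with a span of 1.03, the nearest were Pakap (0.0635), Gpatch4 (0.0802) and Slc39a10 (0.0833). Lif and Socs3 spanned only 0.27 and 0.36. Their nearest genes were Hapln2 (0.0092), Pdzrn4 (0.012) and Ccdc40 (0.0151) for Lif, and Dusp12 (0.0183), Maged1 (0.0211) and Serinc3 (0.0276) for Socs3. These values describe likeness over 5 group means of the same arrays.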

How the data were processed

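Per the labels' protocols, RNA of 14 samples was biotin-labelled and read on Affymetrix rat arrays. The authors deposited 1 table of log2 expression values for 20223 probe sets. How they were summarized, background-corrected and normalized is not given in the sources used here. Limma appears in the submitters' processing notes with no stated role. Probe sets took symbols from the platform table (18510 had 1 symbol, 305 several and 1408 none), updated through RefSeq gene identifiers. The brightest probe set stood for each of 13184 genes.

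Group means were estimated by limma (version 3.58.1, R 4.3.3; lmFit, then eBayes; residual degrees of freedom, 9), with two-sided p-values and Benjamini-Hochberg adjustment. The number of arrays limits the precision. The fit was tested on simulated data.

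The genes and lists were chosen with earlier results of these data known. All family genes are named, and from each other list up to 3 genes per direction past the threshold with the largest change. For some named genes the value at the other time is given too. Likeness takes the 3 nearest genes. Alternatives were normalization, probe set averaging, a dim-gene filter, fewer groups, an intensity trend, a replicate block and leaving out arrays. Same-numbered arrays did not deviate together (correlations -0.27 to 0.18, above 0.1 in 3 of 26 pairs), so numbers were not taken as pairs.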

Additional observations from a re-analysis of the deposited data

Results flagged for a closer look

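For 5 of the 8 genes the JQ1 effect at 48 h differed from that at 6 h in an interaction term of the limma fit, with adjusted p below the threshold of 0.05, 3 upward and 2 downward, where 20.4% of all genes differed upward and 18.3% downward. For Il6 the effect at 48 h minus that at 6 h was -1.75 (adjusted p = 2.29e-05), a larger decrease at the later time. For Clcf1, dim in every group, it was -0.87 (adjusted p = 0.000244), with arrays below DMSO at 48 h. At 6 h the Clcf1 arrays overlapped DMSO, and the rise (adjusted p = 0.0387 in the limma fit) passed in 6 of 11 alternatives. For Lifr the effect at 48 h minus that at 6 h was 0.68 (adjusted p = 0.000125), and for Stat3 0.31 (adjusted p = 0.0172). The Stat3 call was lost without DMSO replicate 2 of the 6 h PE arrays (0.21, adjusted p = 0.102, range over 18 alternatives 0.00128 to 0.102), and its second probe set, at 0.24, did not pass (adjusted p = 0.0536). For the brightest probe set of Il6st it was 0.37 (adjusted p = 0.0262), and that call was lost in 6 of 18 alternatives (adjusted p from 0.0023 to 0.135), each leaving out 1 array: DMSO with PE at 6 h replicate 1 or at 48 h replicate 3, JQ1 with PE at 6 h replicate 1 or 2, or at 48 h replicate 1 or 3. The other 2 probe sets of Il6st gave 0.03 (adjusted p = 0.752) and 0.06 (adjusted p = 0.638). Fibroblast markers had lower effects at 48 h than at 6 h for 8 of 12 genes (median difference -0.91), and their part in these results was not tested.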

How the results depend on the processing

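Of 64 values (8 genes in 8 comparisons), 36 passed the threshold, and 26 of these passed with the same sign in every alternative that gave a value; 10 did not in at least 1. Without dim genes, Lif, Clcf1 and Socs3 have no value. Leaving out 1 of the 2 DMSO arrays at 6 h leaves 1 array, assumed to vary like the other groups. Where not shown by fewer genes or arrays, the cause was not tested. Without dim genes the count fell to 1 for PE at 48 h higher, JQ1 at 6 h higher, JQ1 at 48 h lower and the difference of JQ1 effects lower. With the replicate block it was 1 for PE at 48 h against 6 h lower and 1 for JQ1 at 6 h higher. Fitting only the groups compared gave 1 lower for PE at 6 h. Array centring and probe set averaging each gave 1 lower for JQ1 at 6 h, and centring gave 4 higher for JQ1 at 48 h. Leaving out each array gave 1 to 2 lower for PE at 6 h, 1 to 2 lower for PE at 48 h against 6 h, and 1 to 2 higher and 1 to 2 lower for JQ1 at 6 h. Averaged probe sets turned Il6st with JQ1 at 6 h to 0.0025, and centring turned Socs3 in JQ1 with PE at 6 h against unstimulated cells to 0.0473. Leaving out arrays also crossed 0 for values that did not pass. For PE at 6 h Lif ran from -0.0996 to 0.0313 and Socs3 from -0.2108 to 0.0107. Il6r ran from -0.2853 to 0.0367 for PE at 48 h against 6 h and from -0.1217 to 0.2003 for the difference of JQ1 effects. Lif ran from -0.0682 to 0.1927 for JQ1 at 48 h, and Socs3 from -0.1531 to 0.0685 for JQ1 with PE at 6 h against unstimulated cells. Averaging also took Il6st in that comparison from -0.43 to -0.02 (adjusted p = 0.609, range over 13 alternatives 2.09e-06 to 0.609).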
